A study of Mus musculus with 43 samples.

Results

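NKT cells are T lymphocytes that also carry the NK1.1 receptor of natural killer (NK) cells, and here they were sorted from mouse spleen with or without exposure to interferon alpha. The members were the NKT arrays, found by their titles: 2 arrays of NKT cells taken 2 h after interferon and 3 baseline arrays, which are 5 of the 43 arrays of the series. All mice were male C57BL/6 animals aged 6 weeks. The interferon mice had received 10000 U of interferon alpha under the skin, and the baseline mice are labelled with no injection and no vehicle. RNA was extracted with TriZol, amplified with an Ambion WT kit and hybridised to Mouse Gene 1.0 ST arrays of Affymetrix. The whole series covered 9 cell types in 18 groups. NK cells and CD4+ T cells, each with 5 arrays under the same treatments, served for comparison.

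Most mouse NKT cells recognise lipids held by the MHC class I-like molecule CD1d, depend on the transcription factor PLZF (gene Zbtb16), and store transcripts for cytokines that they release within hours of stimulation. Type I interferons such as interferon alpha bind the Ifnar1 and Ifnar2 receptor chains, and the kinases Jak1 and Tyk2 then activate transcription factors, among them Stat2 and Irf9. The complex they form binds promoter elements with the repeated core GAAA and switches on genes that block viral replication, sense nucleic acids and limit the response itself.

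The labels gave the sorted cells in different words. Baseline arrays 1 and 2 are labelled as NK1.1+ with no T cell receptor gate, baseline array 3 and both interferon arrays as NK1.1+ and T cell receptor beta positive, and no CD1d reagent is named. The description of cell preparation also differed. Baseline arrays 1 and 2 shared a wording, baseline array 3 had another, and both interferon arrays carried a wording that no baseline array of any type carried. Preparation as worded and interferon therefore cannot be told apart in NKT cells. Nothing says that the arrays came from separate animals or whether animals were pooled. The p-values here rest on a spread pooled over all 18 groups of the series, not on that of the NKT arrays alone. The pooled spread may be technical.

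Over all 24922 probe sets, the log2 intensities of baseline arrays 2 and 3 correlated at 0.989 and those of the interferon arrays at 0.986. Baseline array 1 stood apart, at 0.977 with baseline array 2 and 0.967 with baseline array 3, although its nearest array was still of its own group. In 635 of 19752 genes (3.21%) baseline array 1 lay at least 1 below both other baseline arrays on the log2 scale. Among the genes called higher after interferon this held for 144 of 571 (25.2%). A low baseline array 1 itself helps a gene to be called higher, so a larger share there is partly built in. Results that rest on this array are given with and without it.

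Markers of the labelled cell were present on all 5 arrays. Zbtb16 read 10.53, 10.84 and 11.07 at log2 intensity on the baseline arrays and 9.76 and 9.96 after interferon. Klrb1c, which encodes NK1.1, read between 11.36 and 11.56 at baseline and 10.62 and 10.53 after interferon. Cd3e, a chain of the T cell receptor complex, read between 12.44 and 13.08 on the 5 arrays. Cd8a was dim, between 6.67 and 7.42. The summed level of 10 NKT markers was 39184, 41085 and 44346 at baseline and 32127 and 34884 after interferon, against 13848 in baseline CD4+ T cells and 28043 in baseline NK cells. On all 3 baseline arrays, 2 of these 10 lay at least 1 above their mean in CD4+ T and in NK cells on the log2 scale.

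Markers of macrophages were present as well. On all 3 baseline arrays, 10 of 16 macrophage markers lay at least 1 above their mean in CD4+ T and in NK cells on the log2 scale. Their summed level was 18103, 6251 and 11729 on baseline arrays 1 to 3 and 24259 and 10851 on interferon arrays 1 and 2. It was 1740 in CD4+ T cells, 2028 in NK cells and 55491 in the macrophages of the series at baseline. Those macrophages are peritoneal, not from spleen, and a single array of them was taken after interferon. Both groups span a wide range, and interferon array 1 had the highest sum. The macrophage marker C1qb, a complement chain, read 10.92, 9.24 and 10.53 at baseline and 11.20 and 10.46 after interferon (adjusted p = 0.373). Of the 16 markers, Mertk and Siglec1 were called higher, against 2.89% of all genes. The sum of 10 monocyte markers was also highest on interferon array 1, at 12069, against 4797 on interferon array 2 and 2576 to 6082 at baseline. B cell markers summed to between 1101 and 1591 on the 5 arrays. The sum of 11 NK cell markers was 17365, 13431 and 16854 at baseline and 17769 and 16128 after interferon. It was 2452 in baseline CD4+ T cells and 55459 in baseline NK cells. The part of NK cell RNA on the NKT arrays was not tested. In sorted bulk samples, fewer cells of a type and less RNA per cell cannot be told apart.

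**Figure D1:**
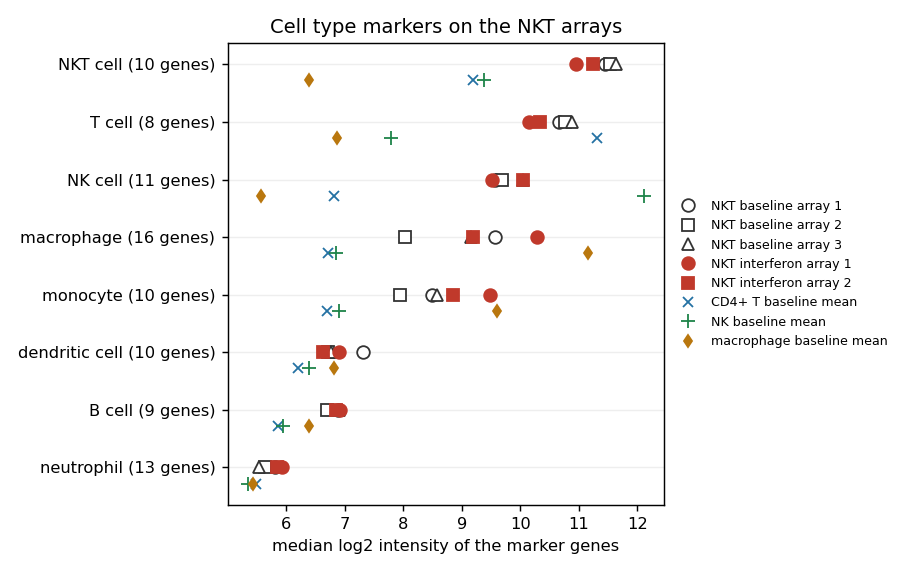
Median log2 intensity (x axis) of the marker genes of 8 cell types (y axis) on each of the 5 NKT arrays, with the baseline means of CD4+ T cells, NK cells and peritoneal macrophages for comparison. NKT and T cell markers lie high on all NKT arrays, and macrophage markers lie between 8.03 and 10.28, above their medians in CD4+ T and NK cells.

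Promoter sequences are shown first because many of the genes that rose most share a short motif. The stretches below are RefSeq promoter bases (GRCm38.p6), read 5′ to 3′ along the gene's strand, of 4 of the 25 genes with the largest rises. Capitals mark a match to GAAA, any 2 bases and GAAA again, the core of the interferon-stimulated response element, on either strand. A match on the opposite strand reads TTTC, any 2 bases and TTTC.
Ifi205: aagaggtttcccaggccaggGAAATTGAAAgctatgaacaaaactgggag
Ifit3b: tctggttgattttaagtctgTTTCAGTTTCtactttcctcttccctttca
Rsad2: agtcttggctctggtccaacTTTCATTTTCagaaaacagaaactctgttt
Cxcl10: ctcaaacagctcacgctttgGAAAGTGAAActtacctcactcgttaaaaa

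The Ifi205 stretch lies on the minus strand at chr1:174031860-174031909, the Ifit3b stretch on the plus strand at chr19:34607783-34607832, the Rsad2 stretch on the minus strand at chr12:26456543-26456592 and the Cxcl10 stretch on the minus strand at chr5:92349073-92349122. All 4 lie upstream of the annotated start of transcription. The motif was searched from 250 bases before to 50 bases after each start, and it can overlap itself. It was found in the promoters of 601 of 15483 measured genes with a promoter (3.88%), in 76 of the 466 such genes called higher in NKT cells (16.3%), and in 21 of the 37 such genes raised by at least 3 on the log2 scale (56.8%). Of the 20 genes with a promoter among the 25 largest named rises, 14 held it. None of the 50 lowered genes with a promoter held it. The palindromic element of activated STAT dimers, TTC and GAA with any 3 bases between them, was found in 8.95% of all genes' promoters and in 9.87% of those of raised genes. A match is a description of the sequence and shows no binding.

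Interferon was followed by more rises than falls in NKT cells. A gene was called when its limma p, adjusted over all 19752 genes by the Benjamini-Hochberg method, was below 0.05 and its change was at least 2-fold, which is 1 on the log2 scale. By this rule 571 genes were higher (2.89% of those tested) and 75 were lower (0.38%), so 3.27% were called in either direction. The median rise was 1.43 and the median fall was -1.12, against a median of -0.10 over all genes. In 558 of the 571 raised genes and in all 75 lowered genes, the interferon arrays did not overlap the baseline arrays. The genes were called on these same arrays, so this is largely built in and is no further support. Over all genes both interferon arrays lay above every baseline array in 12.4% and below in 28.6%. A fit with a term for preparation wording was also run. The term describes wording among baseline arrays only, so it cannot adjust for the wording that only interferon arrays carried. Leaving out baseline array 3 moved the count of raised genes to 875. It was 413 without baseline array 1 and 398 without interferon array 1. Against baseline array 3 alone, whose gate matches that of the interferon arrays, 252 genes were higher and 109 were lower. In all, 226 of the 571 rises (39.6%) and 33 of the 75 falls (44.0%) were called whichever NKT array was left out, with a term for preparation wording, and against baseline array 3 alone.

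**Figure D2:**
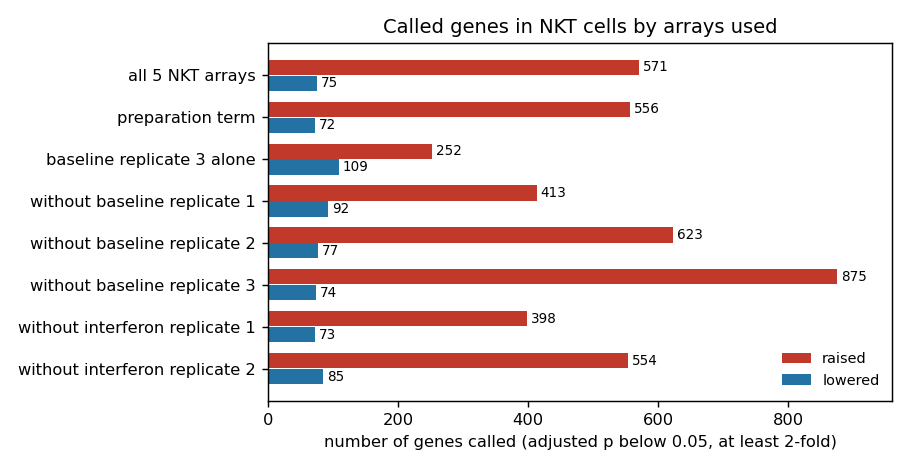
Number of genes called higher (red) and lower (blue) after interferon in NKT cells (x axis) for the fit on all 5 NKT arrays and for fits that add a preparation term, use baseline array 3 alone or leave out an array (y axis). Rises outnumber falls in every bar pair shown, and their number ranges from 252 to 875.

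Most antiviral effector genes rose. The Ifit, Oas, Mx and related effector list had a median change of 3.74. Of its 20 measured members, none was lower and the number higher was 18, against 2.89% of all genes. Without interferon array 1 it was 17, since Ifitm3 was then not called. Ifit3b, of the IFIT family that binds foreign RNA ends, read 4.08, 4.45 and 4.71 on the baseline arrays and 9.14 and 9.78 after interferon, a change of 5.05 (SE 0.326, adjusted p = 2.7e-13). Rsad2, which encodes the antiviral radical-SAM enzyme viperin, read 7.46, 7.74 and 8.43 at baseline and 12.50 and 12.49 after interferon, a change of 4.61 (SE 0.262, adjusted p = 2.35e-14). The gap between groups was far wider than the spread within either. Mx1 and Mx2, dynamin-like GTPases that trap viral nucleoproteins, rose by 4.44 and 4.45. Eif2ak2, the kinase that halts translation on double-stranded RNA, rose by 3.88, and Oas2, which makes the messenger that activates RNase L, by 3.67. Ifitm2 and Ifitm1 did not pass the test, with changes of 1.13 (adjusted p = 0.0998) and 0.34.

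**Figure D3:**
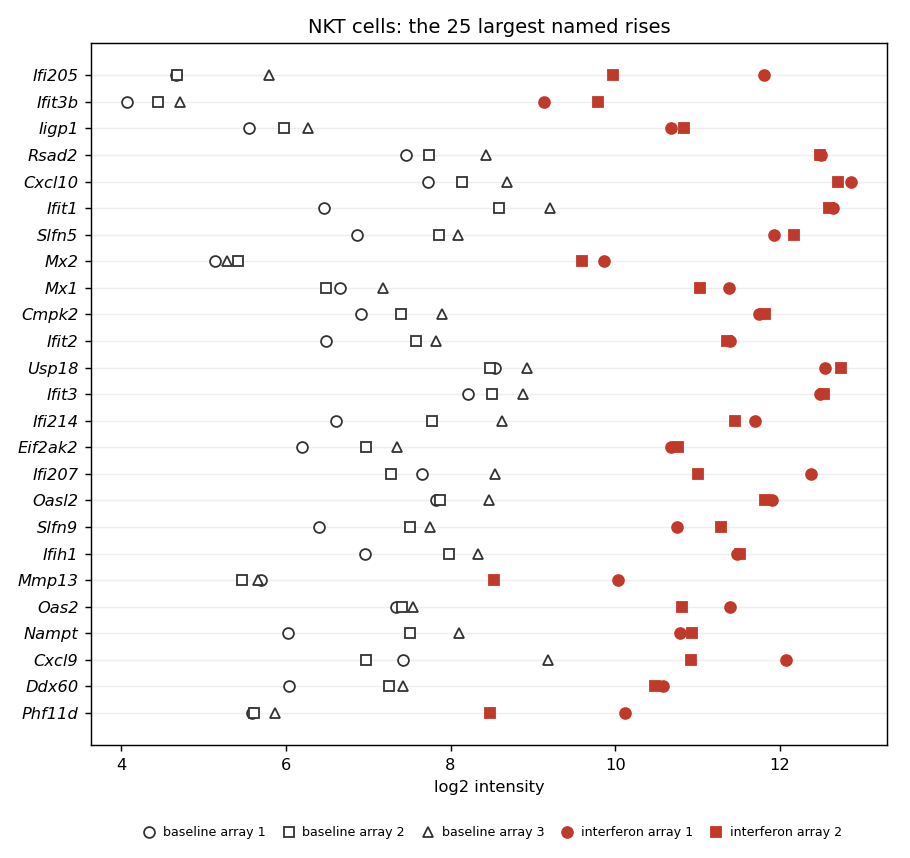
Log2 intensity (x axis) of the 25 named genes with the largest rises in NKT cells (y axis, largest at the top), with a symbol for each of the 3 baseline and 2 interferon arrays. In every gene both interferon arrays lie above all baseline arrays, as the naming rule required. Baseline array 1 is often the lowest, and the interferon arrays lie far apart for Ifi205, Mmp13 and Phf11d.

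Genes of the ubiquitin-like modifier ISG15 pathway followed the same pattern. Of 11 measured members, 10 rose, against 2.89% of all genes, with a median of 2.36 over the list. Usp18, which removes the modifier from proteins and restrains the interferon receptor, read 8.54, 8.47 and 8.93 at baseline and 12.54 and 12.74 after interferon, a change of 3.99 (SE 0.257, adjusted p = 2.7e-13). Herc6, the mouse ligase for the modifier, rose by 3.59, Parp12 by 3.23 and Parp14 by 2.74. Uba7, the activating enzyme, differed by 0.78 (adjusted p = 0.00915) and stayed under the 2-fold line. Isg15 itself was not analysed here.

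GTPases that attack vacuoles holding pathogens rose in both of their families. All 7 measured guanylate-binding proteins were called higher, against 2.89% of all genes. Their changes lay between Gbp8 at 1.98 and Gbp7 at 3.17, and each kept its call in all 15 alternative settings. Of the immunity-related GTPases, Irgm1 rose by 2.35. Iigp1 read 5.56, 5.97 and 6.27 at baseline and 10.67 and 10.84 after interferon, a change of 4.82 (SE 0.246, adjusted p = 2.03e-15).

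The PYHIN genes, whose proteins bind DNA in the nucleus and cytosol, included the gene with the largest measured rise. Ifi205 read 4.67, 4.68 and 5.79 at baseline and 11.80 and 9.98 after interferon, a change of 5.84 (SE 0.414, adjusted p = 1.77e-12). The interferon arrays themselves differed by more than the baseline arrays did, with array 1 the higher. The baseline readings of Ifi205 and Ifit3b were dim, below 7, so the size of these changes is uncertain and the true change may be larger. The order of the 2 genes is not settled by these values. Ifi214 and Ifi207, also named by rank, rose by 3.91 and 3.87. Of the 7 measured genes on the PYHIN list, 6 were called higher, against 2.89% of all genes. Aim2, the DNA sensor of the inflammasome, was the weakest of these 6. Aim2 read 7.27, 8.02 and 8.70 at baseline and 9.46 and 8.65 after interferon, so the groups overlapped, and its change of 1.06 (adjusted p = 0.0371) was lost without baseline array 1, baseline array 2 or interferon array 1.

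Sensors of foreign nucleic acid in the cytosol rose in 7 of 11 measured genes, against 2.89% of all genes. Ifih1, which encodes the RNA helicase MDA5, read 6.96, 7.98 and 8.34 at baseline and 11.48 and 11.52 after interferon, a change of 3.74 (SE 0.283, adjusted p = 8.37e-12). Ddx58, which encodes RIG-I, rose by 2.02, Dhx58 by 2.85 and Cgas, the synthase of the cyclic dinucleotide that activates STING, by 2.02. Tbk1, the kinase downstream of these sensors, rose by 1.43 but was not called against baseline array 3 alone. The Schlafen genes, which restrain proliferation or translation in lymphocytes, rose in 6 of 7 measured members. Slfn5 read 6.87, 7.86 and 8.09 at baseline and 11.93 and 12.17 after interferon, a change of 4.45. Slfn4 rose by 1.61 with readings of 8.80 and 6.86 on the interferon arrays, and its call was lost without interferon array 1.

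Neither chain of the interferon receptor was called. Ifnar1 differed by -0.12 (SE 0.206) and Ifnar2 by -0.04 (SE 0.172), and neither passed the test. Of 7 receptor and kinase genes Jak2 was called, at 1.20, against 3.27% of all genes called in either direction. The call of Jak2 was lost without baseline array 1, interferon array 1 or interferon array 2. Of the signal transducers, Stat2 read 8.94, 9.03 and 9.02 at baseline and 11.26 and 11.21 after interferon, a change of 2.24 (SE 0.238, adjusted p = 2.16e-08), while the 5 other measured STAT genes were not called. Irf7, the amplifier of interferon transcription, rose by 2.22 and Irf2 by 1.07, the latter lost without baseline array 1 or interferon array 2. Irf8 rose by 1.17 and lost its call without baseline array 2, interferon array 1 or interferon array 2. Among 11 genes of negative feedback, Socs1, an inhibitor of JAK kinases, rose by 1.58 and Usp18 as above, against 2.89% of all genes called higher.

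Genes of antigen presentation through MHC class I mostly read higher by less than 2-fold. In 13 of 14 measured genes both interferon arrays lay above all baseline arrays, against 12.4% of all genes, but the median change was 0.61 and 3 genes were called higher, against 2.89% of all. H2-T24, a nonclassical class I gene, rose by 2.45 and Nlrc5, the class I transactivator, by 1.16, the latter lost without interferon array 1. Erap1, the peptide trimming enzyme, rose by 1.02 and was lost without baseline array 1 or interferon array 2. Tap1, a chain of the peptide transporter, differed by 0.71 (adjusted p = 0.0222) and B2m by 0.22 (adjusted p = 0.278). H2-K1 and H2-D1 were not analysed here.

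Genes that define the NKT lineage were mostly not called. Of 26 measured members of the NKT identity list, Cd69 and Maf rose and none fell, against 2.89% and 0.38% of all genes. The median was -0.13 against -0.10 over all genes. Cd69, an early activation marker that holds lymphocytes in tissue, read 8.66, 9.57 and 10.001 at baseline and 11.64 and 12.01 after interferon, a change of 2.42 (SE 0.247, adjusted p = 8.77e-09). Maf, a transcription factor, differed by 1.06 and its call was lost without baseline array 1, interferon array 1 or interferon array 2. Zbtb16, whose arrays are given above, differed by -0.96 (SE 0.236, adjusted p = 0.00764), just short of 2-fold, and its groups did not overlap. It was called lower without baseline array 1, without interferon array 2, against baseline array 3 alone and after quantile normalization, and in no other setting tried. Klrb1c differed by -0.92 (SE 0.276, adjusted p = 0.0334). Tbx21, the T-bet transcription factor, differed by -0.23 (adjusted p = 0.561), Gata3 by -0.41 (adjusted p = 0.321) and Il2rb, the receptor chain for interleukins 2 and 15, by -0.11 (adjusted p = 0.79).

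Among genes of the T cell receptor apparatus, 1 of 15 measured was called lower, against 0.38% of all genes, and none higher, and the median was -0.29. In 8 of the 15 both interferon arrays lay below all baseline arrays, against 28.6% of all genes. Thy1, a surface glycoprotein of T cells, read 12.50, 12.45 and 12.50 at baseline and 11.46 and 11.49 after interferon, a change of -1.01 (SE 0.198, adjusted p = 0.00073). Its call was lost with the preparation term and without baseline array 1, baseline array 3 or interferon array 1. Cd5, an inhibitory coreceptor, differed by -0.83 (adjusted p = 0.000319), Cd3d by -0.60 (adjusted p = 0.116) and Cd4 by -0.13 (adjusted p = 0.768). The summed level of 8 T cell markers was 24451, 25937 and 27649 at baseline and 16961 and 18956 after interferon. The part of cell composition in these values was not tested.

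Receptors shared with NK cells were called higher in 3 of 19 measured genes, against 2.89% of all genes. Klrk1, which encodes the activating receptor NKG2D, read 9.16, 9.88 and 10.30 at baseline and 10.73 and 10.91 after interferon, a change of 1.05 (adjusted p = 0.0118). Klri2 and Klra5 rose by 1.38 and 1.56. All 3 calls were lost without baseline array 1, on which these genes read lowest, and without interferon array 2. Ncr1, the receptor NKp46, differed by 1.13 (SE 0.508, adjusted p = 0.186).

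Cytokine genes were called higher in 8 of 28 measured members and none was lower, against 2.89% and 0.38% of all genes. Ifng, the interferon of activated lymphocytes, read 9.57, 9.87 and 10.33 at baseline and 11.32 and 11.68 after interferon, a change of 1.58 (SE 0.223, adjusted p = 4.64e-06), and kept its call in all alternative settings. The other cytokine for which NKT cells are known, Il4, read lower after interferon, without overlap. It read 8.55, 9.02 and 9.14 at baseline and 7.81 and 8.21 after interferon, a difference of -0.89 (SE 0.153, adjusted p = 0.000118), which stayed under the 2-fold line. It was called lower against baseline array 3 alone and without baseline array 1 or interferon array 2. Il13, Il2 and Tnf differed by -0.09, -0.38 and 0.30, and none passed the test. Il10 rose by 1.12 from dim baseline readings of 4.26 to 4.43, and Csf1, the growth factor of macrophages, by 1.51.

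Part of the cytokine rises rested on interferon array 1, the array with the highest macrophage marker sum. Il1b read 8.88 and 6.43 on the interferon arrays against 6.98, 5.88 and 6.67 at baseline, so the groups overlapped. Il18 read 8.61 and 6.58, and Il1a read 7.55 and 6.14. Without interferon array 1 the calls of these 3 genes were lost. Il15, a cytokine that maintains NK and NKT cells, read 6.20, 5.67 and 6.54 at baseline and 9.49 and 8.19 after interferon, a change of 2.70 (SE 0.303, adjusted p = 6.35e-08), and kept its call when either interferon array was left out. The part of macrophage RNA in these rises was not tested.

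Among 18 chemokines, Cxcl10 and Cxcl9, both ligands of Cxcr3, were called higher, against 2.89% of all genes. Cxcl10 read 7.73, 8.14 and 8.69 at baseline and 12.86 and 12.71 after interferon, a change of 4.60 (SE 0.301, adjusted p = 3.1e-13). Cxcl9 read 7.42, 6.97 and 9.19 at baseline and 12.07 and 10.92 after interferon, a change of 3.64 (SE 0.483, adjusted p = 1.55e-06). Their receptor fell. Cxcr3, which draws activated T and NK cells to inflamed tissue, read 11.88, 11.79 and 11.78 at baseline and 10.71 and 10.87 after interferon, a change of -1.03 (SE 0.217, adjusted p = 0.00165), lost without baseline array 1 or interferon array 1.

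Of 15 cytotoxic effector genes, 2 were called, both higher, against 2.89% of all genes. Gzmb, the protease granzyme B, read 7.93, 8.45 and 8.90 at baseline and 10.90 and 11.55 after interferon, a change of 2.80 (SE 0.449, adjusted p = 3.98e-05). Tnfsf10, the death ligand TRAIL, read 7.98, 9.13 and 9.29 at baseline and 10.64 and 10.92 after interferon, a change of 1.98 (SE 0.273, adjusted p = 2.91e-06). Prf1, the pore former perforin, differed by -0.17 (adjusted p = 0.685), Gzma by 0.76 (adjusted p = 0.386) and Fasl by 0.15 (adjusted p = 0.646).

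Genes of the cell death machinery rose in 8 of 15 measured members, against 2.89% of all genes. The list shares Tnfsf10 with the cytotoxic genes. Mlkl, the executor of necroptosis, read 5.96, 5.91 and 5.98 at baseline and 9.17 and 9.12 after interferon, a change of 3.19 (SE 0.267, adjusted p = 8.37e-11). Casp4, which responds to cytosolic lipopolysaccharide, rose by 2.75, Daxx by 2.37, Xaf1 by 2.32, Casp1 by 1.83 and Casp8 by 1.38. The change of Casp8 was 0.72 against baseline array 3 alone, and its call was lost when the NKT arrays were fitted alone. None of 10 genes of the BCL2 family was called, against 3.27% of all genes called in either direction. In that list both interferon arrays lay above all baseline arrays in 4 genes and below in 3, against 12.4% and 28.6% of all genes.

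Of 23 costimulatory and inhibitory genes, 3 rose and 1 fell, against 2.89% and 0.38% of all genes. Cd274, the gene of the inhibitory ligand PD-L1, read 8.22, 8.51 and 8.98 at baseline and 11.05 and 11.06 after interferon, a change of 2.48 (SE 0.29, adjusted p = 1.42e-07). Cd86, a costimulatory ligand, rose by 2.11 and Lgals9, the galectin ligand of Tim-3, by 1.12. Tnfrsf9, the costimulatory receptor 4-1BB, read 10.05, 9.82 and 10.06 at baseline and 8.58 and 9.01 after interferon, a change of -1.18 (adjusted p = 0.00669), lost without interferon array 1.

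Some genes of the stress and growth lists were called higher, against 2.89% of all genes, and most of these calls rested on single arrays. Of 26 immediate early genes Nr4a2, Atf3 and Myc were called higher. Myc, a driver of cell growth, rose by 1.26 (adjusted p = 0.00102) and lost its call without interferon array 2. Atf3, a stress factor, rose by 1.35 and lost it without interferon array 1. Nr4a2 was called at 1.01 with overlapping groups and lost it without baseline array 1, baseline array 2, interferon array 1 or interferon array 2. Of 10 heat shock genes Hsp90aa1 and Dnaja1 were called at 1.58 and 1.33. Hsp90aa1 read 7.82 on baseline array 1 against 10.07 and 9.82 on the other baseline arrays, and without baseline array 1 neither was called. Ribosome biogenesis genes were called higher in 4 of 12 with all arrays and in 1 of 12 without baseline array 1. None of 12 glucocorticoid response genes was called, against 3.27% of all genes called in either direction. Without baseline array 1, 1 of these 12 was called lower. Map3k8, a kinase upstream of NF-kappaB, was the 1 called member of 15 on its pathway list, at 1.41.

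The 75 falls were smaller than the rises, and 6 of them reached -1.5. Mmp9, a secreted protease that cleaves gelatin and basement membrane collagen, fell most. It read 10.70, 10.38 and 10.49 at baseline and 7.78 and 8.0 after interferon, a change of -2.64 (SE 0.264, adjusted p = 5.06e-09). Mmp9 is also a neutrophil gene, with a mean of 13.21 in the baseline neutrophils of the series. The 12 other neutrophil markers summed to 710, 639 and 601 on the NKT baseline arrays and 1130 and 690 after interferon, against 80237 in baseline neutrophils, and none of them was called lower. Among these 12, Ngp, which encodes a neutrophil granule protein, was called higher. It read 5.94, 6.12 and 5.45 at baseline and 8.07 and 6.88 after interferon, a change of 1.64 (adjusted p = 0.00764), and its call was lost without interferon array 1. The part of RNA from neutrophils or other cell types in the fall of Mmp9 was not tested. Among 17 matrix metalloproteinases, Mmp13 rose and Mmp9 fell, against 2.89% and 0.38% of all genes, and no other was called.

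Genes of lipid synthesis and of other functions, named by rank or from the lists, also fell. Scd2, a desaturase of fatty acids, read 9.51, 9.29 and 9.35 at baseline and 7.61 and 7.5 after interferon, a change of -1.83 (SE 0.26, adjusted p = 5.19e-06). Fads1, another desaturase, fell by 1.22, and these were the 2 called of 11 genes of fatty acid synthesis, against 0.38% of all genes called lower. Dhcr7, which completes cholesterol synthesis, was the 1 called of 16 in its list, at -1.06, and lost its call without interferon array 1. Sgsh, a lysosomal sulfatase of heparan sulfate, fell by 1.60, Smpd1, the acid sphingomyelinase, by 1.35, and Tpcn1, an ion channel of endolysosomes, by 1.55. Cnr2, the cannabinoid receptor of immune cells, read 8.75, 8.67 and 8.79 at baseline and 7.41 and 6.98 after interferon, a change of -1.54 (SE 0.258, adjusted p = 7.58e-05). Pdk2, a kinase that shuts pyruvate dehydrogenase, fell by 1.31. Slc2a3, a glucose transporter, fell by 1.27 and lost its call without interferon array 1. Herpud1, of the unfolded protein response, read 11.34, 11.27 and 11.02 at baseline and 9.84 and 10.16 after interferon, a change of -1.21, and was the 1 called of 14 in its list.

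Hic1 and Sit1 were also among the falls named by rank. Hic1, a transcriptional repressor, read 9.78, 9.53 and 9.46 at baseline and 7.56 and 7.99 after interferon, a change of -1.81 (SE 0.248, adjusted p = 2.76e-06). Sit1, a membrane adaptor that dampens T cell receptor signals, read 9.87, 9.84 and 9.88 at baseline and 8.36 and 8.38 after interferon, a change of -1.49 (SE 0.224, adjusted p = 1.33e-05). The arrays of each group differed by less than 0.05 there. Eya2 fell by 1.39, Podnl1 by 1.36, Chst2, a sulfotransferase of glycans, by 1.39, and Xylt2, which starts proteoglycan chains, by 1.36. Rflnb and Rtn4rl1 fell by 1.5 and 1.29. All 15 named falls kept their call in each alternative setting except Rflnb and Chst2, which lost it when the NKT arrays were fitted alone.

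**Figure D4:**
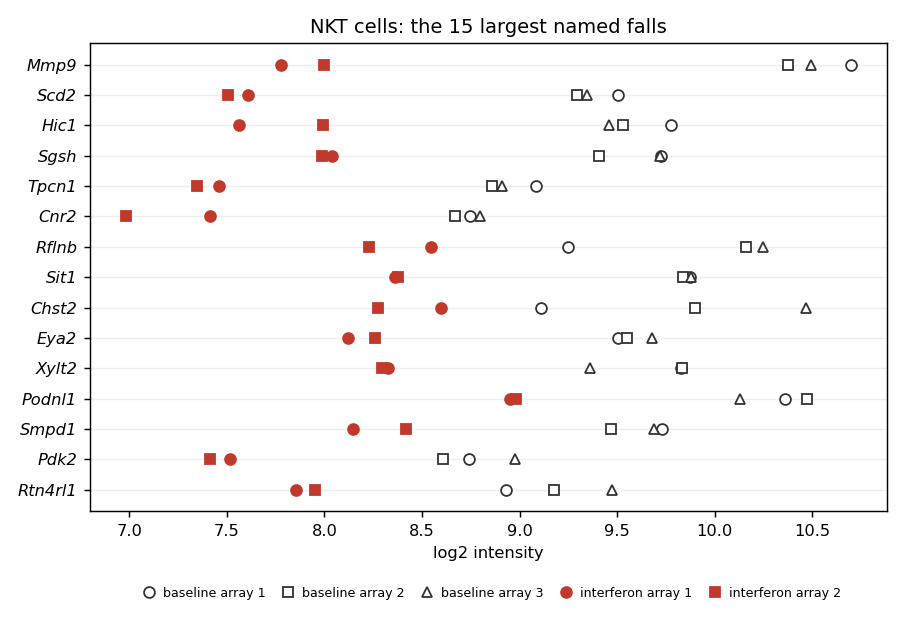
Log2 intensity (x axis) of the 15 named genes with the largest falls in NKT cells (y axis, largest at the top), with a symbol for each of the 3 baseline and 2 interferon arrays. In every gene both interferon arrays lie below all baseline arrays, as the naming rule required. For Mmp9 they read 7.78 and 8.0 against 10.38 to 10.70.

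Some receptors better known from myeloid cells also rose. Of 13 Toll-like receptors 5 were called higher and of 19 phagocytic receptors 4, against 2.89% of all genes. Tlr3, the sensor of double-stranded RNA, read 5.80, 5.86 and 5.92 at baseline and 8.94 and 8.62 after interferon, a change of 2.92 (SE 0.228, adjusted p = 1.82e-11). Tlr7, an endosomal sensor of single-stranded RNA, rose by 2.77. Tlr4 and Tlr9 lost their calls without interferon array 1, and the Tlr9 groups overlapped. Fcgr1, the high-affinity receptor for IgG, read 7.18, 6.4 and 6.75 at baseline and 10.07 and 8.25 after interferon, a change of 2.38. Fcgr4 rose by 2.51 and Siglec1 by 1.12, and both lost their calls without interferon array 1. For Tlr4, Tlr9, Fcgr1, Fcgr4, Siglec1 and Mertk, interferon array 1 read above interferon array 2 by at least 1, as its macrophage marker sum did. Over all raised genes such a gap was found in 64 of 571 (11.2%), over all genes in 1.24%, and among the lowered genes in none of 75. Genes were called on these same arrays, which favours such a gap among raised genes and disfavours it among lowered ones. These shares therefore do not measure a role of macrophage RNA. The part of macrophage or monocyte RNA in these rises was not tested.

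Many of the rises were shared with other cell types, which have their own baseline arrays. Of the 571 raised genes, 90 were also called higher in all 8 other types, 84 in 5 to 7, 220 in 1 to 4 and 177 in none. Of the 75 lowered genes, none was called lower in all 8, 6 in 5 to 7, 37 in 1 to 4 and 32 in none. A call in NKT cells and not elsewhere does not show that the effect differs, so the difference itself was tested. The signed log2 change in NKT cells was above the mean change of the other 8 types in 58 genes (0.294% of those tested) and below it in 8 (0.0405%), or 0.334% in either direction. A change below the mean can be a deeper fall, as for Mmp9, or a weaker rise. Of the 177 rises called in no other type, 23 were among the 58, and of the 32 such falls, 6 were among the 8.

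Without interferon array 1 the 58 became 14, of which 12 were among the 58, and without baseline array 2 they became 29. Without baseline array 3 they became 383 and without interferon array 2 they became 174. Against baseline array 3 alone, with neutrophils left out for want of such an array, 4 genes were called above the mean, 3 of them among the 58. The 8 became 14 without baseline array 1 and 3 without interferon array 1. Of the 58 genes, 19 (32.8%) read at least 1 higher on interferon array 1 than on interferon array 2, against 1.24% of all genes. The 58 were selected on these same arrays, which favours such a gap. Mmp13, Trpm6 and Mmp9 kept their calls in all 14 alternative settings of this comparison, among them the preparation term, which hardly moves such differences.

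Mmp13, a collagenase, had the second largest named difference. It read 5.70, 5.47 and 5.66 on the baseline arrays and 10.03 and 8.53 after interferon. The change of 3.67 (SE 0.276, adjusted p = 7.76e-12) was above the mean elsewhere by 2.87 (SE 0.294, adjusted p = 2.86e-07). The gap was 2.12 (adjusted p = 0.000277) without interferon array 1. Its level after interferon was 6.84 in NK cells, 5.59 in CD4+ T cells, 7.77 in dendritic cells and 5.98 on the single array of peritoneal macrophages. NK cells and dendritic cells were the other types in which it was called higher. Its promoter held the motif with 2 GAAA cores.

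Trpm6, an ion channel for magnesium, was called in no other type. It read 7.59, 7.95 and 8.0 at baseline and 10.01 and 10.12 after interferon, a change of 2.22 (SE 0.15, adjusted p = 5.55e-13). The difference from the other types was 1.82 (adjusted p = 1.26e-08). After interferon its level was 5.91 in NK cells, 6.62 in CD4+ T cells and 5.69 on the single array of peritoneal macrophages. Both NKT interferon arrays read nearly alike.

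Mmp9 fell in NKT cells by 2.16 more than the mean of the other types (adjusted p = 5.07e-05). Dendritic cells were the other type in which it was called lower, from 8.74 to 7.13 in the mean. In NK and CD4+ T cells it was dim at baseline, at 6.47 and 6.70. Hic1 differed from the other types by -1.42 (adjusted p = 0.00501), Chad, a matrix protein, by -1.14, Sit1 by -1.13, Chst2 by -1.11 and Podnl1 by -1.09. These 5 lost their calls without interferon array 1, with differences of -1.0 to -1.28 there.

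**Figure D5:**
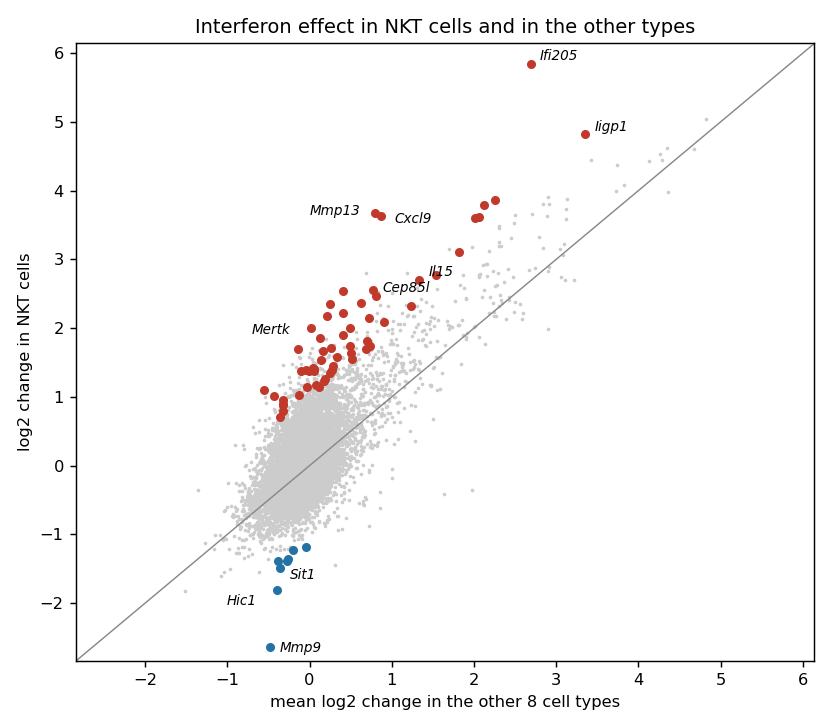
Log2 change after interferon in NKT cells (y axis) against the mean log2 change of the other 8 cell types (x axis), 1 point per gene, with a line of equal change. Red points mark the 58 genes called above the mean of the other types and blue points the 8 called below it; Mmp13 and Cxcl9 lie far above the line and Mmp9 below it.

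Ifi205 rose by 3.15 more than the mean elsewhere (adjusted p = 0.000181). The gap was 2.24 without interferon array 1, where it was no longer called (adjusted p = 0.0541). Its level after interferon was 12.36 on the single array of peritoneal macrophages and 13.09 in dendritic cells. Both lie above the 11.80 and 9.98 of the NKT arrays, and NK cells read 7.04. Cxcl9 exceeded the mean by 2.76, Gpr141, an orphan receptor, by 2.14, Mertk by 1.98, Tlr8 by 1.96 and Tfec, a transcription factor of the MITF family, by 1.74. All 5 lost their calls without interferon array 1, and Cxcl9 and Gpr141 also without baseline array 2. Gpr141 read 5.72, 5.45 and 5.04 at baseline and 9.70 and 6.19 after interferon, so that interferon array 1 carried most of the change, and without it the difference was 0.38. Over the 58 genes, 27 (46.6%) read higher on the single macrophage array after interferon than in the mean of the NKT interferon arrays, against 52.1% of all genes. The macrophages were peritoneal.

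Sh2d1b1 and Cep85l exceeded the mean whichever NKT array was left out, and neither was called against baseline array 3 alone. Sh2d1b1, the adaptor EAT-2 of SLAM receptors, read 7.23, 6.17 and 7.15 at baseline and 8.72 and 8.38 after interferon, a change of 1.70 and a difference of 1.84 (adjusted p = 0.000679). It rose by a similar amount in NK cells, 1.60, and was called lower in dendritic cells. Cep85l rose by 2.55 and differed by 1.77 (adjusted p = 0.00146). Iigp1, which was called higher in all 9 types, exceeded the mean by 1.47 (adjusted p = 0.00313).

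Against NK cells, which share the NK1.1 gate and the wording of the interferon arrays, the signed NKT change was higher in 22 genes (0.111%) and lower in 14 (0.0709%), or 0.182% in either direction. The largest were Ifi205 at 3.52, Mmp13 at 2.30, Itih5 at 2.18, Iigp1 at 2.14 (adjusted p = 0.00402) and Slfn3 at 1.91. Slfn3 rose by 2.79 in NKT cells and differed by 0.88 in NK cells. Sh2d1b2, the SLAM adaptor ERT, rose in both, from 4.27, 4.38 and 4.37 to 6.16 and 7.45 in NKT cells, a change of 2.46, and by 5.05 in NK cells, a difference of -2.59 (adjusted p = 0.00726). Mmp9 differed by -2.47, Hic1 by -1.58, Sit1 by -1.54 and Il4 by -1.10 (adjusted p = 0.0183). Csf2, the growth factor GM-CSF, differed by -1.49, with values of 0.09 in NKT cells and 1.59 in NK cells.

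The 22 became 14 without baseline array 1, 14 without baseline array 2, 11 without interferon array 1, 180 without baseline array 3 and 111 without interferon array 2. The 14 became 4 without baseline array 1, 5 without baseline array 2 and 1 without interferon array 1. Against baseline array 3 alone limma called no gene, while 214 were higher and 113 lower by at least 1 at an unadjusted p below 0.05. Iigp1, Slfn3, Trpm6 and Mmp9 kept their calls whichever NKT array was left out. Ifi205, Mmp13, Sh2d1b2, Csf2, Il4, Hic1 and Sit1 lost theirs without interferon array 1, and Itih5 without baseline array 1 or interferon array 2. Hic1, Sit1 and Csf2 lost theirs without baseline array 1 too, Hic1, Sit1 and Il4 without baseline array 2, and Il4 without baseline array 3.

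Against CD4+ T cells, which share the T cell receptor and the wording of the interferon arrays, the signed NKT change was higher in 35 genes (0.177%) and lower in 9 (0.0456%), or 0.223% in either direction. Ifi205 differed by 4.22 (adjusted p = 0.000193), Mmp13 by 3.61 (adjusted p = 2.13e-06), Cep85l by 2.77, Il15 by 2.44 and Tlr8 by 2.36. The interferon difference of Il15 was 0.26 in CD4+ T cells and 2.03 in NK cells, where the difference from NKT cells, 0.67, did not pass the test (adjusted p = 0.557). On the negative side Mmp9 differed by -2.42 (adjusted p = 0.000725), Hic1 by -1.60, Hcst, the adaptor DAP10, by -1.44, Ifitm10 by -1.27 and the kinase gene Pak6 by -1.15. The interferon difference of Hcst was -0.73 in NKT cells and 0.72 in CD4+ T cells. Cgas differed by 1.73 (adjusted p = 0.0107) with an interferon difference of 0.29 in CD4+ T cells itself.

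The 35 became 17 without baseline array 1, 11 without baseline array 2, 9 without interferon array 1, 309 without baseline array 3 and 133 without interferon array 2. The 9 became 3 without baseline array 1, baseline array 2 or interferon array 1, 28 without baseline array 3 and 14 without interferon array 2. Against baseline array 3 alone, 1 gene was higher, Mmp13, and 2 were lower. Ifi205, Mmp13, Cep85l, Cgas, Trpm6, Mmp9, Ifitm10 and Pak6 kept their calls whichever NKT array was left out. The difference of Il15 was 1.79 without interferon array 1 (adjusted p = 0.164), where Tlr8, Hic1 and Hcst also lost their calls. Tlr8, Hic1 and Hcst lost them without baseline array 2 as well, and Hic1 and Hcst without baseline array 1.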

How the data were processed

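RNA was measured on 43 Mouse Gene 1.0 ST arrays of Affymetrix, 5 of them of NKT cells. The authors' deposited values are 1 linear intensity per probe set and array. Per the submitters' processing notes the tools were RMA, which combines the probes of a set and puts arrays on a common scale, and Affymetrix Power Tools. Tool versions and build were not given in the sources used here. Values ran from 4.69 to 22042 and array medians from 104.7 to 125.1. They were log2-transformed without further scaling. Of 24922 probe sets, 21425 carried 1 symbol in the platform annotation, which can be old, 1399 several and 2098 none. The brightest probe set stood for a gene, which left 19752 genes. Genes whose probe sets carried no symbol or several are not analysed here.

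Under R 4.3.3, limma 3.58.1 was run on all 18 groups at once with lmFit and eBayes. This leaves 25 residual degrees of freedom, against 3 for the NKT arrays by themselves. The p-values are two-sided and adjusted by the Benjamini-Hochberg method over all genes within a comparison. The steps were tested on simulated data. The NKT effect was also compared with the mean effect of the other 8 types, with NK cells and with CD4+ T cells. The number of arrays limits the precision.

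Named genes were the 25 largest rises and 15 largest falls among called genes without overlap, the 10 largest positive and 6 largest negative called differences from the other 8 types, the 5 largest each way from NK and CD4+ T cells, and members of 53 gene lists, of which those described were picked after their values were seen. Predicted genes were counted and not named, 32 among the rises. The comparison, the lists (594 of 667 genes measured) and the rules were chosen with earlier results of these data known. Lists are described by counts and medians, with no test of a list. Motifs were searched in RefSeq promoters (GRCm38.p6).

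Alternatives were a term for preparation wording, baseline array 3 alone, the compared types fitted alone, a fixed or random replicate block, quantile normalization, dim genes left out, array weights, robust moderation with a variance trend, probe sets averaged, each NKT array left out, and a stricter motif.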

Additional observations from a re-analysis of the deposited data

Results flagged for a closer look

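With all arrays, the interferon effect in NKT cells differed from that in other cell types in the genes named here, by limma tests of the difference itself. Many of these calls rest on single arrays. Against the mean effect of the other 8 types, the signed NKT change was higher in 58 genes and lower in 8. The 10 largest named positive differences on the log2 scale were Ifi205 3.15, Mmp13 2.87, Cxcl9 2.76, Gpr141 2.14, Mertk 1.98, Tlr8 1.96, Sh2d1b1 1.84, Trpm6 1.82, Cep85l 1.77 and Tfec 1.74. The 6 largest negative differences were Mmp9 -2.16, Hic1 -1.42, Chad -1.14, Sit1 -1.13, Chst2 -1.11 and Podnl1 -1.09. Without interferon array 1, which had the highest macrophage marker sum of the 5 NKT arrays, 4 of these 10 positive and 1 of these 6 negative differences kept the call, and Gpr141 differed by 0.38. Against baseline array 3 alone, 3 of the 10 and 3 of the 6 kept it. The part of macrophage RNA in these differences was not tested.

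Against NK cells, the signed NKT change was higher in 22 genes and lower in 14. The 5 largest in each direction were Ifi205 3.52, Mmp13 2.30, Itih5 2.18, Iigp1 2.14 and Slfn3 1.91 on the positive side and Sh2d1b2 -2.59, Mmp9 -2.47, Hic1 -1.58, Sit1 -1.54 and Csf2 -1.49 on the negative side. Without interferon array 1, 3 of these 5 positive and 1 of these 5 negative differences kept the call, and against baseline array 3 alone none did.

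Against CD4+ T cells, the signed NKT change was higher in 35 genes and lower in 9. The 5 largest in each direction were Ifi205 4.22, Mmp13 3.61, Cep85l 2.77, Il15 2.44 and Tlr8 2.36 on the positive side and Mmp9 -2.42, Hic1 -1.60, Hcst -1.44, Ifitm10 -1.27 and Pak6 -1.15 on the negative side. Without interferon array 1, 3 of these 5 kept the call on either side, and against baseline array 3 alone 1 did on either side. The 3 comparisons share the NKT arrays, so a gene that appears in more than 1 of them is not seen independently. The NKT groups, of 2 and 3 arrays, are too small for a test of outlying samples.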

How the results depend on the processing

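The counts rest on 5 NKT arrays whose preparation wording cannot be told apart from interferon. Over the 646 genes called in NKT cells, no setting turned the direction of a change except for Il1b, whose change ranged from -0.08 without interferon replicate 1 to 2.37 without interferon replicate 2. None of the called differences between cell types (66, 36 and 44 genes) changed sign. The cause of the moves below was not tested, except that fits with fewer arrays or degrees of freedom test with less precision. The median change of all genes was -0.10 in the fit reported and between -0.13 and -0.05 over the settings, and -0.06 after quantile normalization.

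Raised genes numbered 571, 252 against baseline replicate 3 alone, 259 with the NKT arrays fitted alone and 904 with a fixed replicate block; leaving out an NKT array gave 398 to 875, and the other settings 550 to 609. Lowered genes numbered 75, and 64 to 109 over all settings. Positive differences from the other 8 types numbered 58, then 4 against baseline replicate 3 alone, where neutrophils have no such array and 7 types remain, 422 and 88 with a fixed and a random replicate block, and 318 with array weights. Leaving out an array gave 14 to 383. The 8 negative ones became 13 with the fixed replicate block, 13 after quantile normalization and 47 with array weights, with a range of 3 to 14 on leaving out an array.

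The 22 positive and 14 negative differences from NK cells became 0 and 0 against baseline replicate 3 alone (214 and 113 at an unadjusted limma p below 0.05) and 2 and 2 with both types fitted alone. The 22 became 142 and 35 with a fixed and a random replicate block, 44 after quantile normalization and 598 with array weights, and 11 to 180 on leaving out an array. The 14 became 166 with array weights and 1 to 20 on leaving out an array. The 35 positive and 9 negative differences from CD4+ T cells became 1 and 2 against baseline replicate 3 alone, 0 and 1 with both types fitted alone (526 and 82 unadjusted), 1260 and 202 with a fixed replicate block, 63 and 19 after quantile normalization and 935 and 168 with array weights. The 35 became 74 with a random replicate block and 9 to 309 on leaving out an array, and the 9 became 3 to 28.

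Array weights gave baseline replicates 1, 2 and 3 weights of 0.301, 3.606 and 0.575. The shared replicate numbers were not taken as pairing: deviations of same-numbered NKT arrays correlated at 0.264 and 0.317, over only 2 pairs. The preparation term, the dim gene filter, the variance trend and the mean of probe sets kept all 8 counts within 1.5 times. The preparation term describes wording among baseline arrays only. It left the size of differences from NK and CD4+ T cells unchanged, as for Iigp1 (2.139) and Cep85l (2.772). Differences from the other 8 types hardly moved, as for Mmp9 (-2.159 and -2.165 with the term). For differences between types this setting is therefore no check. Within NKT cells the term cannot adjust for the wording that only interferon arrays carried. With a stricter motif, GAAAC, any base and GAAA, the share of raised genes' promoters was 6.65% in place of 16.3%, against 0.794% of all.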
